A study of Drosophila melanogaster with 9 samples.

Results

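The cytosolic ribosomal protein genes of Drosophila melanogaster were followed as a set through an assay of chromatin accessibility. The members were the genes of the dm6 annotation whose symbol begins with RpL or RpS, together with sta, which encodes a small subunit protein. The mitochondrial ribosomal protein genes, with symbols in mRpL or mRpS, were not included. This rule gave 93 genes of 18277 annotated, all of them protein-coding, with 158 transcript starts. There were 19 on chromosome arm 2L, 21 on 2R, 14 on 3L, 23 on 3R, 1 on chromosome 4 and 15 on X. By symbol, 47 encoded large subunit proteins, 38 small subunit proteins, 3 the acidic stalk proteins RpLP0, RpLP1 and RpLP2, and 5 were relatives whose symbol ends in "like".

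ATAC-seq, which marks accessible DNA by where a transposase (Tn5) can insert adapters, was performed in Kc167 cells, a female cell line of embryonic origin that is used as a hemocyte model. There were 3 libraries of M1BP knockdown (20 µg of dsRNA against M1BP) and 3 of Cp190 knockdown (12 µg of dsRNA against Cp190). Another 3 were of mock treatment, transfected with no RNA. All were collected 5 days after transfection. The study asked how the promoter-binding protein M1BP and the insulator protein CP190 act on chromatin and transcription. All cells came from 1 line, and the replicates of a group were described as biological replicates.

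Ribosomal proteins join ribosomal RNA to form the small and large subunits of the ribosome, and their genes are among the most strongly and evenly transcribed genes of a growing cell. In Drosophila many of their promoters start transcription at a TCT initiator, a pyrimidine-rich element that replaces the usual initiator, and depend on the TBP-related factor Trf2 and on Dref, which binds the DNA replication-related element (DRE). M1BP is a zinc finger protein that binds Motif 1, a core promoter element of housekeeping genes, and is known to bring Trf2 to ribosomal protein promoters.

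Core promoters of members are shown because the results below are read against Motif 1 and the TCT initiator. The sequences were taken from the RefSeq copy of dm6 and run 5′ to 3′ on the strand of the gene, with 60 bases before an annotated transcript start and 10 from it. Capitals mark the Motif 1 word GGTCACACT or its first 8 letters on either strand, the TCT word, CTTTC or CTTTT, where its C lies within 5 bp of the start, and the DRE word TATCGATA. The first 7 carried the whole Motif 1 word, RpL6 carried its first 8 letters, RpS3, RpS4 and RpS7 are genes with large changes and no Motif 1 word, and RpL34b and RpL7-like are genes whose percentile was not called lower.
RpLP0 (chr3L:22076032-22076101, plus strand): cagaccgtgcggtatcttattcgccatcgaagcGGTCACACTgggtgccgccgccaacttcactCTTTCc
RpLP1 (chr2L:419892-419961, plus strand): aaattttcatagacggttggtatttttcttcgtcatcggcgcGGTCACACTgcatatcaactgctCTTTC
RpL7 (chr2L:10200944-10201013, plus strand): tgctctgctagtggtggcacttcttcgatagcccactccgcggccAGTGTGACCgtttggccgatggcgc
RpS9 (chr3L:9511522-9511591, minus strand): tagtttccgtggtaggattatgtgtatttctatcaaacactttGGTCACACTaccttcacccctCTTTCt
RpL27A (chr2L:4458335-4458404, minus strand): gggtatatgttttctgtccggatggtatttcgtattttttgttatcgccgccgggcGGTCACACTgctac
RpL37A (chr2L:5070940-5071009, plus strand): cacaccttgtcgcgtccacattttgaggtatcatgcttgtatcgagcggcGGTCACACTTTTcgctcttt
sta (chrX:1483404-1483473, minus strand): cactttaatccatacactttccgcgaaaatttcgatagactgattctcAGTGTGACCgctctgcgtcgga
RpL6 (chr3R:31596195-31596264, minus strand): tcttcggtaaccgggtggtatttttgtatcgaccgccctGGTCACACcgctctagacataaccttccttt
RpS3 (chr3R:23358752-23358821, plus strand): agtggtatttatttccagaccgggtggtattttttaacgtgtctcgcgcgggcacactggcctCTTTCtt
RpS4 (chr3L:13041741-13041810, plus strand): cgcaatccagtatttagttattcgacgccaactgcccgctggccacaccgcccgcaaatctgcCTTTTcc
RpS7 (chr3R:30208933-30209002, minus strand): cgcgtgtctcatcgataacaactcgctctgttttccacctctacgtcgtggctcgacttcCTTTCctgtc
RpL34b (chr3R:9401217-9401286, minus strand): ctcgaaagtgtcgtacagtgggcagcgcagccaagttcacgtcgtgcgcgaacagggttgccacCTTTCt
RpL7-like (chr2L:12056288-12056357, plus strand): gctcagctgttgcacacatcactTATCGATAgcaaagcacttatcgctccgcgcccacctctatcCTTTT

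The TCT word was shared by most members. It lay within 5 bp of a start, on the strand of the gene, in 57 of 93 members (61.3%), against 4.75% of the other protein-coding genes. The DRE word TATCGATA lay within 100 bp of a start, on either strand, in 27 members (29.0%), against 8.35% of the other protein-coding genes. Motif 1 in its exact form GGTCACACT lay within 100 bp, on either strand, in 9 members (9.68%), against 5.82% of the others, and the shorter word GGTCACAC lay in 13 members (14.0%), against 7.50% of the others. The 9 genes with the exact word were RpLP0, RpLP1, RpL7, RpL27A, RpL37A, RpS9, RpS15, RpS23 and sta. The word began between 27 bp before and 4 bp before the start in all 9. In RpL37A the Motif 1 and TCT words overlap. These are matches of letters and not mapped binding sites.

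A promoter peak was scored where an accessibility peak, called in 1 library against the local background of that library, came within 100 bp of an annotated start. Ribosomal protein promoters carried such a peak more often than other protein-coding genes in every library. A peak was present for 73 to 76 members in the M1BP knockdown libraries (80.3% ± 1.63), for 77 to 79 members in the Cp190 knockdown libraries (83.5% ± 1.21) and for 75 to 78 members in the mock libraries (81.7% ± 1.91; SD, n = 3 each). The other protein-coding genes had one in 45.4% ± 0.964 of cases in M1BP knockdown, 48.1% ± 0.100 in Cp190 knockdown and 48.2% ± 0.173 in mock. A peak was found in all 9 libraries for 71 of the 93 members (76.3%), against 39.7% of the other protein-coding genes and 64.4% of the 73 mitochondrial ribosomal protein genes. The highest point of the peak lay close to the start, with library medians from 26 bp to 19 bp before it in M1BP knockdown, 20 bp to 17 bp in Cp190 knockdown and 20 bp to 19 bp in mock.

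No member lost its promoter peak in a whole group. A loss, meaning a peak in all 3 mock libraries and in no knockdown library, was seen for 0 of the 74 members with a peak in all 3 mock libraries under either knockdown. Over all genes 5.00% of such promoters were lost under M1BP knockdown and 0.944% under Cp190 knockdown. A gain, the opposite pattern, was also seen for 0 members, while 1.49% of the genes with no mock peak gained one under M1BP knockdown and 0.338% under Cp190 knockdown. These are counts of peak calls and were not tested.

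Of the 9 members with a peak in some libraries, RpS27A, RpS2 and RpL9 lacked one only in the first M1BP knockdown library, which had the fewest peaks of all. In all 8 libraries where RpS27A had a peak, that peak also covered a start of Ip259. RpS27A encodes a ubiquitin fusion that yields a small subunit protein. Its peak stood at percentiles 66.2 and 55.0 of the list in the other M1BP knockdown libraries, against 81.2, 85.4 and 84.2 in Cp190 knockdown and 86.0, 84.5 and 87.2 in mock. The percentile is the place of the peak in the list of that library when all its peaks are ordered by -log10 q, with the highest at the top. The peak of RpL9, a large subunit gene, stood at 66.1 and 53.6 in those 2 M1BP knockdown libraries, against 80.3, 81.3 and 79.8 in Cp190 knockdown and 80.8, 80.0 and 82.1 in mock. RpS2, a small subunit gene, stood at 34.6 and 12.6, against 53.1, 52.1 and 47.8 in Cp190 knockdown and 48.5, 47.7 and 54.1 in mock. All 3 genes were thus lowest in the M1BP knockdown libraries that still had the peak, and no test was run since the peak was missing from one of them.

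The remaining 6 had a peak in 2 to 6 libraries. RpS14b had one in 6 libraries, RpL32 in 5, RpL37A in 4, RpL40 in 3, and RpL39 and RpL12 in 2 each. RpL40 encodes the other ubiquitin fusion, and its 3 peaks were in 2 Cp190 knockdown libraries and 1 mock library. RpS14a and RpS14b are neighbouring, near-identical copies, so reads from them may not be told apart and their values are uncertain.

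The 13 members with no promoter peak in any library fell into 2 kinds. One kind was single-copy or main-copy genes that every cell needs, among them RpS23, RpL10Ab and RpL35A. The nearest peak lay 500 to 513 bp from the RpL10Ab start over the 9 libraries, outside the window. It lay 678 to 2281 bp from RpL35A and 229 to 2773 bp from RpS23, which carries the exact Motif 1 word. The other kind was second copies and relatives, namely RpS5b, RpS10a, RpS14a, RpS19b, RpL10Aa, RpL22-like, RpL34a, RpL37-2 and RpS28-like. Of their partners, RpS5a, RpS10b, RpS19a, RpL22, RpL34b and RpL37-1 had a promoter peak in all 9 libraries. RpL34a stood apart among these, since a peak 216 to 474 bp from its start covered part of the gene in every library.

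**Figure D1:**
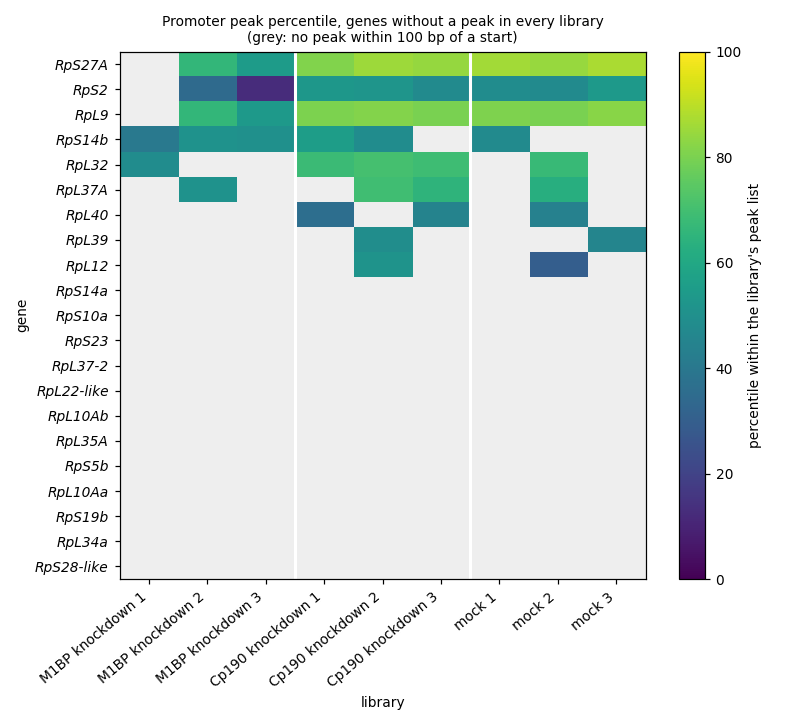
Promoter peaks of 21 of the 22 ribosomal protein genes without a peak in every library, with genes as rows and libraries as columns (3 M1BP knockdown, 3 Cp190 knockdown, 3 mock), coloured by percentile within the peak list of the library and grey where no peak was called. RpS27A, RpS2 and RpL9 lack a peak only in M1BP knockdown 1, and 12 of the genes shown lack one throughout.

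M1BP knockdown lowered the standing of ribosomal protein promoters within the peak lists. Of the 71 members with a peak in all 9 libraries, the percentile was lower in M1BP knockdown than in mock for 61 and higher for 0 in the limma fit (adjusted p under 0.05 over all 6100 genes tested). Over all genes tested 52.6% were called lower and 10.8% higher. At an unadjusted p under 0.05, 63 members were lower and 0 higher. The median over members was 78.3, 82.5 and 82.1 in the M1BP knockdown libraries, against 91.4, 91.3 and 92.6 in the mock libraries. The groups did not overlap. The median difference was -9.63 percentile points over members and -6.19 over all genes.

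The lists themselves differed in length, and the percentile depends on it. The M1BP knockdown libraries held 13464, 15209 and 15232 peaks, against 18959, 17178 and 18574 in mock, and with fewer weak peaks below it a promoter takes a lower percentile. Each promoter was therefore also ranked only among the 6100 genes with a promoter peak in all 9 libraries, a scale on which the median of all genes is 50 by construction. On this scale 45 members were lower and 2 higher in M1BP knockdown, against 26.7% of all genes lower and 26.3% higher. The member medians were 62.8, 65.0 and 65.1 in M1BP knockdown, against 76.4, 77.6 and 79.6 in mock. All 45 members called lower on this scale were also lower in percentile, and 16 were lower in percentile only.

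The height of the peaks gave a different sign before scaling. Fold enrichment over local background had a median over members of 5.63 ± 0.403 in M1BP knockdown and 4.90 ± 0.0653 in mock, and over all genes of 4.89 ± 0.366 in M1BP knockdown and 4.00 ± 0.0869 in mock (SD, n = 3 each). On the log2 fold enrichment as deposited, 4 members were lower and 26 higher. Centred on the median of all genes, 26 were lower and 5 higher. Fragments at the highest point of the peak were recovered as whole numbers from the deposited values. Their median over members was 302.7 ± 23.7 in M1BP knockdown and 395.7 ± 18.5 in mock. Over all genes it was also lower, at 240.7 ± 14.4 in M1BP knockdown and 281.3 ± 7.77 in mock. The lowest local background over the peaks of a library was 29.5 to 35.2 fragments per base in M1BP knockdown and 39.7 to 41.7 in mock. The summit fragments given here and for single genes are counts not scaled for this background or for depth. The part of background and depth in these differences was not tested. The falls described here are in percentile within the whole peak list unless the rank among promoters is named.

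**Figure D2:**
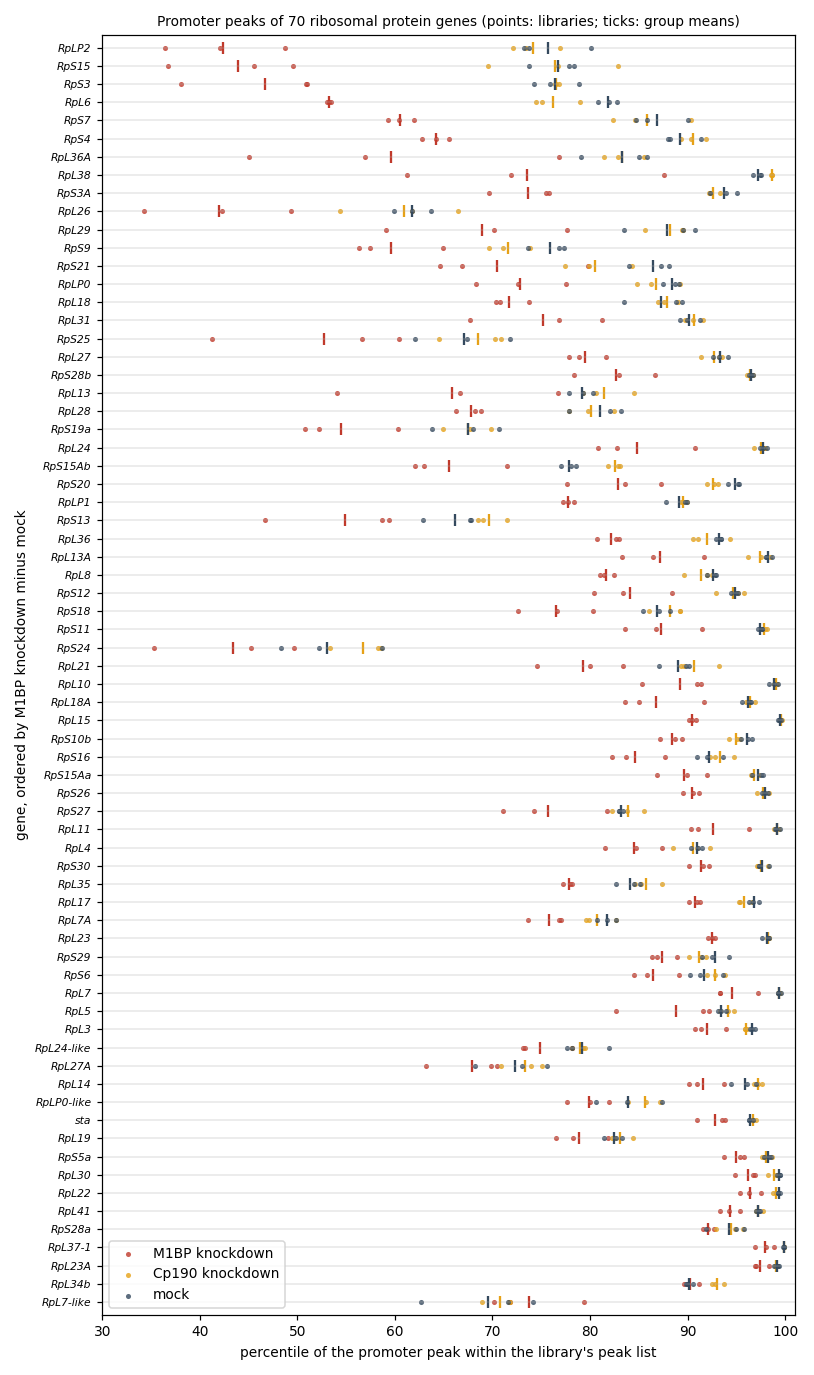
Percentile of the promoter peak within the peak list of each library (x axis) for 70 of the 71 ribosomal protein genes with a peak in all 9 libraries (rows, ordered by the M1BP knockdown minus mock difference). Points are libraries and ticks are group means. The M1BP knockdown points lie to the left for most genes, from RpLP2 at the top (42.4 in M1BP knockdown, 75.7 in mock) to RpL7-like at the bottom (73.8 in M1BP knockdown, 69.5 in mock), while Cp190 knockdown and mock lie together.

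The stalk proteins RpLP0, RpLP1 and RpLP2, which contact the elongation factors on the large subunit, all fell. RpLP2 stood at percentiles 36.4, 48.7 and 42.1 in M1BP knockdown, against 76.9, 73.4 and 72.1 in Cp190 knockdown and 73.8, 80.1 and 73.2 in mock. This was the largest fall among members, -33.3 points (SE 3.57, limma adjusted p = 2.03e-05). The RpLP2 peak had 190, 249 and 200 fragments at the summit in M1BP knockdown, against 352, 396 and 364 in mock. In the first M1BP knockdown library the summit lay 676 bp after the start, beyond the 604 bp gene. Its 190 fragments and percentile of 36.4 were thus not read at the start. The summit lay at 26 and -5 bp in the other M1BP knockdown libraries and at 34 to 35 bp in mock. With 1 library left out the difference was -36.4 to -30.3 points. With a window of 250 bp another peak was read for RpLP2, and the difference was -12.5 points and no longer passed the test. RpLP0 averaged 72.8 ± 4.62 in M1BP knockdown and 88.4 ± 0.814 in mock (adjusted p = 0.000257). RpLP1, whose promoter the study used in reporter assays, averaged 77.8 ± 0.617 in M1BP knockdown and 89.1 ± 1.21 in mock (adjusted p = 6.87e-05; SD, n = 3 each), while its log2 fold enrichment was 0.227 higher. All 3 stalk genes were also lower in the rank among promoters.

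Among the small subunit genes 26 of 29 tested were lower, with a median difference of -10.4 points, and 17 of 29 were lower in the rank among promoters. RpS15, which carries Motif 1, stood at 36.7, 49.6 and 45.6 in M1BP knockdown, against 73.8, 78.4 and 77.9 in mock (difference -32.7, SE 4.10, limma adjusted p = 5.56e-05). Its peak held 109, 132 and 118 fragments at the summit in M1BP knockdown and 205, 217 and 229 in mock. RpS3, which lies at the mRNA entry site and also acts in DNA repair, stood at 38.1, 51.0 and 50.9 in M1BP knockdown, against 78.9, 75.9 and 74.3 in mock (difference -29.7). In each of these genes every M1BP knockdown library was below every mock library.

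RpS7 and RpS4, small subunit genes with higher peaks in mock, also fell. RpS7 stood at 59.3, 62.0 and 60.4 in M1BP knockdown, against 90.0, 84.7 and 85.8 in mock, and RpS4 at 64.2, 65.5 and 62.8 in M1BP knockdown, against 91.4, 88.2 and 88.0 in mock. Their differences were -26.3 (adjusted p = 1.64e-05) and -25.0 (adjusted p = 3.21e-06). RpS4 had 267, 273 and 235 summit fragments in M1BP knockdown, against 458, 423 and 438 in mock. RpS24 and RpS28a were among the small subunit genes tested that did not pass, with a difference of -9.68 for RpS24 (limma adjusted p = 0.0731) and of -2.07 for RpS28a (adjusted p = 0.104). The promoter of sta averaged 92.8 ± 1.53 in M1BP knockdown and 96.4 ± 0.241 in mock, a small difference of -3.68 that passed (adjusted p = 0.000839). Its sign turned when fragments were scaled to the median of all genes, where the log2 difference was 0.10, and on log2 fold enrichment, where it was 0.277.

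Among the large subunit genes 32 of 36 tested were lower, with a median difference of -7.76 points, and 25 were lower and 1 higher in the rank among promoters. RpL6 stood at 53.3, 53.0 and 53.5 in M1BP knockdown, against 82.0, 82.8 and 80.8 in mock (difference -28.6, SE 2.47, limma adjusted p = 4.79e-06). The 3 M1BP knockdown values were within 1 point of each other and far below the mock values. RpL38, whose mouse counterpart is known for selective translation of Hox mRNAs, stood at 61.2, 87.6 and 71.9 in M1BP knockdown, against 96.7, 97.5 and 97.4 in mock (difference -23.6, adjusted p = 0.00101). It had the largest fall in the rank among promoters, -38.5. RpL36A stood at 45.0, 76.8 and 56.9 in M1BP knockdown, against 79.1, 85.8 and 85.0 in mock (difference -23.7, adjusted p = 0.00514). For both genes the M1BP knockdown libraries were spread widely.

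Several large subunit genes with high peaks fell by few percentile points. In mock they lay close to 100, the top of the scale, which bounds their spread there. RpL15 stood at 90.1, 90.5 and 90.9 in M1BP knockdown, against 99.4, 99.3 and 99.6 in mock (difference -8.92, SE 0.402, adjusted p = 8.16e-08). Its summit had 419, 423 and 395 fragments in M1BP knockdown and 724, 693 and 771 in mock. The RpL15 difference in the rank among promoters was -17.4 points. RpL30, the other promoter the study used in reporters, averaged 96.2 ± 1.06 in M1BP knockdown and 99.4 ± 0.160 in mock (difference -3.25, adjusted p = 0.000257). RpL37-1 averaged 97.9 ± 1.05 in M1BP knockdown and 99.9 ± 0.0320 in mock (difference -1.94), and RpL23A averaged 97.4 ± 0.790 in M1BP knockdown and 99.2 ± 0.271 in mock (difference -1.78), both with adjusted p = 0.00251. On log2 fold enrichment these 3 turned higher, by 0.18 for RpL30, 0.217 for RpL37-1 and 0.463 for RpL23A, and RpL23A stayed higher, by 0.174, when centred on all genes.

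RpL34b and RpL7-like were the members called higher in the rank among promoters. RpL34b, the copy of RpL34 with a promoter peak, stood at 90.0, 89.6 and 91.2 in M1BP knockdown, against 92.5, 93.7 and 92.8 in Cp190 knockdown and 89.8, 89.9 and 90.6 in mock, a difference from mock of 0.18 points (adjusted p = 0.872). In the rank among promoters it was 7.17 points higher (adjusted p = 0.0109), and its fold enrichment averaged 7.62 ± 0.884 in M1BP knockdown and 4.65 ± 0.142 in mock. RpL7-like, a relative of RpL7, had a difference of 4.30 points that did not pass (adjusted p = 0.307) and that was 0.913 to 6.64 with 1 library left out, lowest without the second mock library, and was 22.7 points higher in the rank among promoters (adjusted p = 0.00242). In all 9 libraries the peak of RpL7-like also covered a start of CG34164 or JhI-21. Its summit lay at -306, -324 and -324 bp from the nearest start in M1BP knockdown, and at -3, -324 and -3 bp in mock. In Cp190 knockdown it lay at -2, -3 and -3 bp. The M1BP knockdown values of RpL7-like were thus not read at the start. The 3 tested "like" genes, RpL7-like, RpL24-like and RpLP0-like, had no call in percentile, and all 3 had a narrower promoter peak in M1BP knockdown than in mock.

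**Figure D3:**
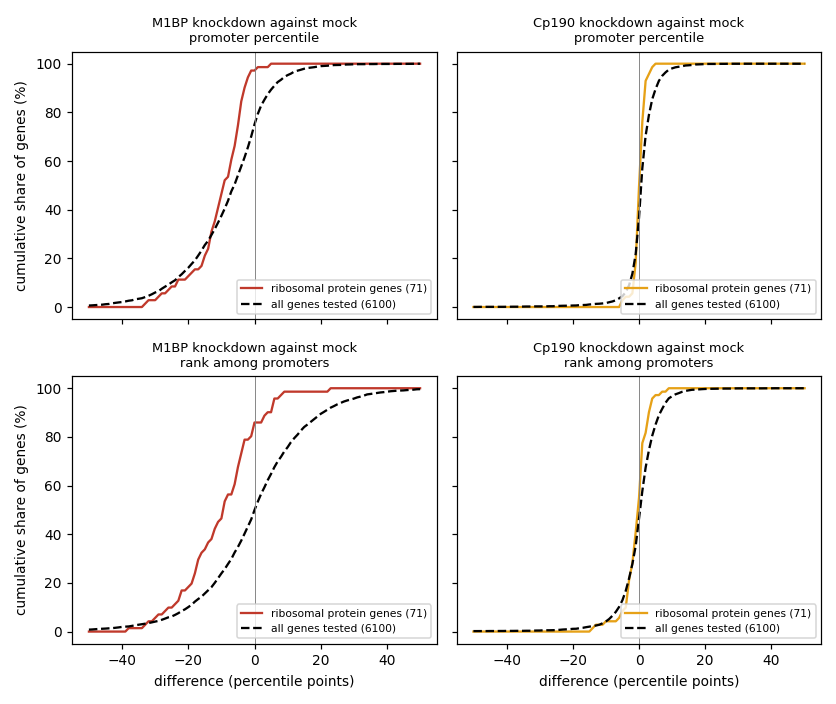
Cumulative share of genes (y axis, percent) against the difference from mock (x axis, percentile points) for M1BP knockdown (left) and Cp190 knockdown (right), in percentile within the peak list (top) and in rank among 6100 promoters (bottom). Coloured lines are the 71 ribosomal protein genes and dashed lines all genes tested. Under M1BP knockdown the members lie to the left of all genes in the rank, with medians of -9.39 for members and 0.01 for all genes, and under Cp190 knockdown both lines rise steeply at 0.

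Members were also set beside other genes of a like level. In the band of genes with a mean percentile over the 9 libraries from 90 to 100, 28 of 31 members were lower in M1BP knockdown (90.3%), against 46.2% of 1283 other genes, and the median differences were -5.66 for members and -1.19 for the others. In the rank among promoters 26 of these 31 members were lower and 1 higher, against 31.1% of the others lower and 26.3% higher. From 75 to 90, 24 of 28 members were lower (85.7%), against 51.1% of 1961 other genes, and from 50 to 75, 9 of 12 were lower (75.0%), against 57.6% of 2243 other genes. In that lowest band the rank was lower for 4 of 12 members (33.3%), against 24.9% of the others. The mean that sets the band includes the M1BP knockdown libraries, so genes were not matched on their mock level. The bands were chosen after the data were seen and are a description.

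The fall was seen in members with and without the exact Motif 1 word. Members without this word are not all promoters that lack Motif 1. Among them, RpL30 and RpL6 carry only the shorter word GGTCACAC, and the study describes the RpL30 promoter as containing Motif 1. Of the 7 tested members with the exact word, 6 were lower in M1BP knockdown, with a median difference of -11.4 points, and of the 64 without it 55 were lower, with a median of -9.49. Among these 7, RpLP0, RpL7 and sta shared their peak with a start of CG7130, Ripalpha and inc in all 9 libraries. RpLP1 shared its peak with CG13690 in 2 libraries. In RpL7 and sta the word lay on the strand opposite to the gene, so peak and word may belong to the neighbour. The members with the exact word averaged a median percentile of 72.7 ± 4.47 in M1BP knockdown and 88.1 ± 0.834 in mock (SD, n = 3 each). RpL27A, the exception, averaged 67.9 ± 4.04 in M1BP knockdown and 72.3 ± 3.76 in mock (adjusted p = 0.232). Among the other genes, 75.5% of 605 with the word were lower, with a median of -12.9 points, against 49.6% of 5424 without it, with a median of -5.53.

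The calls were also counted by the other promoter words. With a TCT word 40 of 47 tested members were lower (85.1%), and without it 21 of 24 (87.5%). Other genes with a TCT word were lower in 44.6% of 332 cases, with a median of -3.70 points, against -9.68 for the members with it. With a DRE word 19 of 23 members were lower (82.6%), and without it 42 of 48 (87.5%), against 52.6% of all genes. In the rank among promoters 12 of 23 members with a DRE were lower (52.2%) and 33 of 48 without (68.8%), against 26.7% of all genes. The differences between these classes were not tested.

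**Figure D4:**
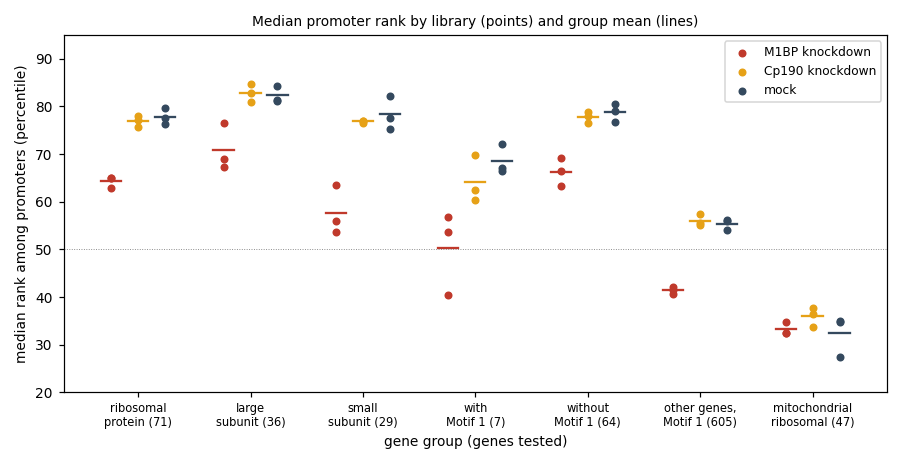
Median rank among promoters (y axis, percentile) by library (points) with the mean of 3 libraries (lines), for groups of genes (x axis, number tested in brackets), in M1BP knockdown, Cp190 knockdown and mock. The ribosomal protein genes sit at 62.8 to 65.1 in M1BP knockdown and at 76.4 to 79.6 in mock. Members with and without the exact Motif 1 word are both lower in M1BP knockdown, while the mitochondrial ribosomal protein genes overlap between groups.

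Cp190 knockdown left the ribosomal protein promoters close to mock. In the limma fit 0 of 71 members were called lower and 0 higher, against 0.770% and 0.131% of all genes, and at an unadjusted p under 0.05 there was 1 lower and 1 higher. The median percentile over members was 92.3, 92.0 and 91.0 in Cp190 knockdown, against 91.4, 91.3 and 92.6 in mock, and the groups overlapped. The lowest differences were those of RpS21 (80.6 ± 3.50 in Cp190 knockdown, 86.4 ± 2.15 in mock), RpL6 (76.2 ± 2.43 in Cp190 knockdown, 81.9 ± 1.02 in mock) and RpS9 (71.6 ± 2.11 in Cp190 knockdown, 75.9 ± 2.00 in mock). The highest were those of RpS15Ab (82.6 ± 0.706 in Cp190 knockdown, 77.9 ± 0.796 in mock), RpS24 (56.8 ± 2.89 in Cp190 knockdown, 53.1 ± 5.25 in mock) and RpS13 (69.7 ± 1.64 in Cp190 knockdown, 66.2 ± 2.79 in mock; SD, n = 3 each). None of these 6 passed the test (limma adjusted p of 0.605 to 0.999).

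The knockdowns were also compared directly. M1BP knockdown was lower than Cp190 knockdown for 64 of 71 members and higher for 0, against 56.2% and 8.93% of all genes, and 66 were lower and 0 higher at an unadjusted p under 0.05. The 2 comparisons share the M1BP knockdown libraries, and 60 members were called lower in both. The amounts of dsRNA differed (20 µg for M1BP and 12 µg for Cp190), and the effect of the amount cannot be told apart from the target. Mock cells received no RNA, so the same holds for dsRNA itself in each comparison with mock.

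The peaks at ribosomal protein promoters were narrower in M1BP knockdown, about as often as those of other genes. Of 71 members 19 were narrower and 0 wider than in mock, against 25.6% and 7.41% of all genes, and 27 were narrower and 4 wider at an unadjusted p under 0.05. The median log2 difference was -0.20 over members and -0.12 over all genes. RpS7 had the largest change, with widths of 377, 423 and 357 bp in M1BP knockdown, against 992, 1107 and 1030 bp in mock (0.369 times, adjusted p = 1.01e-05). RpL7 had 419, 417 and 510 bp in M1BP knockdown, against 940, 967 and 949 bp in mock (0.469 times, adjusted p = 7.56e-05), and RpS25 had 153, 199 and 284 bp in M1BP knockdown, against 478, 499 and 557 bp in mock (0.402 times, adjusted p = 0.00415). In these 3 genes the groups were far apart.

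Of the 19 narrower members 15 were also lower in percentile. RpLP2, with the largest fall in percentile, had widths of 793, 794 and 785 bp in M1BP knockdown, against 750, 764 and 748 bp in mock. When widths were centred on the median of all genes, 9 members were narrower and 18 wider, so narrowing of the set as a whole depended on the scaling. Without the first M1BP knockdown library 12 members were narrower and 1 wider. In Cp190 knockdown 0 members were narrower and 0 wider, against 0.525% and 0.377% of all genes, with 1 narrower and 0 wider at an unadjusted p under 0.05.

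Peaks also covered less of some ribosomal protein genes after M1BP knockdown. The share of the gene length covered by peaks was tested in the 82 members with coverage in at least 3 libraries, and 29 were lower and 0 higher than in mock, against 35.7% and 5.25% of 9744 genes tested. At an unadjusted p under 0.05, 39 were lower and 2 higher. The median coverage over these members was 22.5%, 27.9% and 24.6% in M1BP knockdown, against 43.3%, 43.9% and 46.4% in mock. The median difference was -9.54 percentage points over members and -4.05 over all genes. The share of members called lower was near that of all genes.

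RpS2 had the largest fall, with 0%, 16.2% and 13.0% of the gene covered in M1BP knockdown, against 63.5%, 76.7% and 79.1% in mock (difference -63.4, SE 6.01, limma adjusted p = 0.000303). RpS18 had 5.4% in each of the 3 M1BP knockdown libraries, against 42.4%, 79.0% and 39.3% in mock (difference -48.2, adjusted p = 0.0116). The promoter peak of RpS18 was present in those libraries, at percentiles 72.6, 80.3 and 76.6. RpS6, the small subunit protein phosphorylated by S6 kinase, had 34.1%, 22.1% and 20.6% in M1BP knockdown, against 68.9%, 56.6% and 73.5% in mock. In none of these genes did the 2 groups overlap.

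RpLP0 was covered over 53.5%, 65.5% and 56.5% of its length in M1BP knockdown, against its whole length in the 3 mock libraries (adjusted p = 0.00163). In Cp190 knockdown RpLP0 was covered over 94.2%, 80.1% and 70.8%. RpL8 had 45.9%, 43.5% and 59.4% in M1BP knockdown, against 93.9%, 79.1% and 93.7% in mock (adjusted p = 0.00408). RpL34a, with no promoter peak, had 33.5%, 27.0% and 28.1% in M1BP knockdown, against 49.2%, 57.7% and 57.2% in mock (adjusted p = 0.000976). RpLP2 and RpS28a were covered over their whole length in all 9 libraries. The summit of the RpS28a promoter peak lay 485 to 576 bp after its start, outside the 304 bp gene. In all 9 libraries that peak also covered a start of Axn or Mgat2, and the RpS28a percentile was read from it. The largest increases were RpL41, which encodes a very short large subunit peptide (27.6 points, adjusted p = 0.0834), RpS12 (15.2 points, adjusted p = 0.0955) and RpL21 (3.18 points, adjusted p = 0.750), and none passed. With 1 library left out RpS12 gave 7.34 to 19.4 points, lowest without the second M1BP knockdown library, and RpL21 gave -1.31 to 10.3 points, with the sign turned without the second M1BP knockdown or the first mock library.

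**Figure D5:**
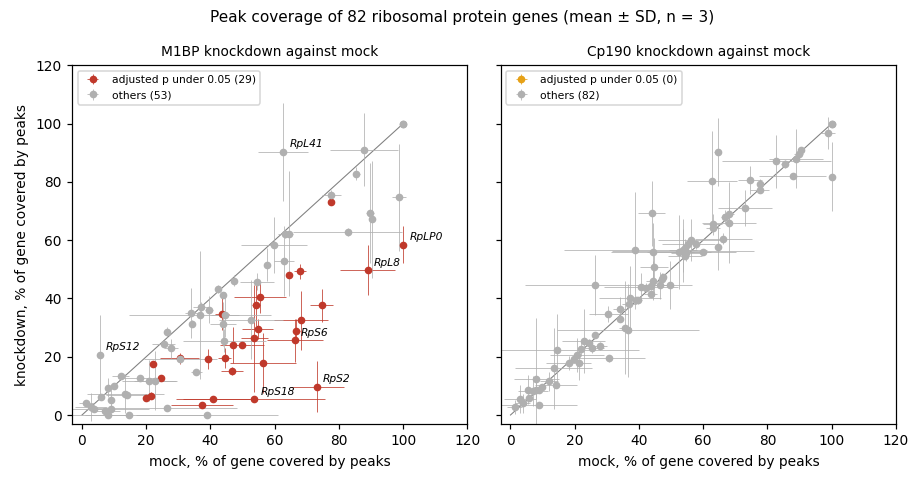
Share of the gene length covered by peaks in knockdown (y axis, percent) against mock (x axis, percent) for 82 ribosomal protein genes, with M1BP knockdown on the left and Cp190 knockdown on the right. Points are means and bars SDs of 3 libraries, the line marks equal values, and coloured points passed the limma test. Under M1BP knockdown 29 genes lie below the line and pass, with RpS2 and RpS18 farthest below it, and under Cp190 knockdown 0 pass.

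Of the 29 genes that were less covered, 21 were also lower in promoter percentile and 15 had a narrower promoter peak. In Cp190 knockdown 0 of 82 members differed in coverage in either direction, against 1.53% of genes lower and 1.09% higher, with 1 lower and 2 higher at an unadjusted p under 0.05. The median coverage over members was 47.5%, 44.5% and 43.6% in Cp190 knockdown, against 43.3%, 43.9% and 46.4% in mock.

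Neighbouring genes limit what a promoter peak can be assigned to. In all 9 libraries 17 members shared their promoter peak with the start of another protein-coding gene, such as RpL36 with Mybbp1A, RpL14 with Nelf-E and RpL13 with Dref itself. Of these 17, 13 were lower in M1BP knockdown, with a median difference of -4.81 points. Of the 49 tested members whose peak held no other start in any library, 44 were lower, with a median of -9.63. By chromosome the calls ranged from 12 of 16 tested on 3R to 12 of 12 on 3L and 13 of 13 on X.

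The mitochondrial ribosomal protein genes, whose products serve the ribosome of the mitochondrion, were counted in the same way. Of 47 tested, 30 were lower and 3 higher in percentile in M1BP knockdown, against 52.6% and 10.8% of all genes. Their median difference was -12.0 points. In the rank among promoters 11 were lower and 10 higher, against 26.7% and 26.3% of all genes. Their median there was -1.96, while the cytosolic set had 45 of 71 lower with a median of -9.39. The difference between the sets was not tested. In the list of ribosome biogenesis factors 8 of 17 tested were lower and 2 higher in percentile, against 52.6% and 10.8% of all genes. The list held Rrp1, which in Drosophila is known as a DNA repair nuclease and was 1 of the 2 higher, and without it, a count added after seeing the data, 8 of 16 were lower and 1 higher. The higher one was Nopp140, a nucleolar chaperone of small RNPs, at 90.4 ± 0.109 in M1BP knockdown and 79.0 ± 2.78 in mock (adjusted p = 0.00101). The translation elongation factors had 5 of 5 tested lower in percentile, against 52.6% of all genes. Among them eEF2, which moves the ribosome along the mRNA, stood at 70.7 ± 4.71 in M1BP knockdown and 88.4 ± 2.50 in mock (adjusted p = 0.00014). In the rank among promoters 2 of these 5 factors were lower, against 26.7% of all genes.

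Of 7 regulators of ribosomal protein genes and of growth, 4 were lower and 2 higher in percentile, against 52.6% and 10.8% of all genes. M1BP itself, the target of the knockdown, was lower, at 64.5 ± 3.01 in M1BP knockdown and 84.0 ± 5.88 in mock (difference -19.5, adjusted p = 0.000526). S6k, the kinase of RpS6, stood at 68.4 ± 3.34 in M1BP knockdown and 92.1 ± 0.496 in mock (difference -23.7, adjusted p = 3.26e-06). Trf2 stood at 93.6 ± 4.58 in M1BP knockdown and 98.9 ± 0.140 in mock (adjusted p = 0.0139). Xrp1, a transcription factor induced when ribosomal protein genes are lost in 1 copy, was higher, at 87.8 ± 2.36 in M1BP knockdown and 69.7 ± 2.02 in mock (adjusted p = 9.11e-05). Myc, an activator of ribosome production, was also higher, at 92.5 ± 1.29 in M1BP knockdown and 86.0 ± 0.246 in mock (adjusted p = 0.00394; SD, n = 3 each). The value of Dref is that of the peak it shares with RpL13, which was lower.

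The libraries held 13464 to 18959 peaks, and their lowest local background was 29.5 to 46.4 fragments per base. Promoter peaks in all 9 libraries were found for the hemocyte genes srp, Pxn and Hml and in none for Col4a1, Ppn and NimC1. Peaks in all 9 libraries were also found for 1 of 3 neuronal genes (elav) and 1 of 3 muscle genes (Mef2), and an accessible promoter is not a measure of expression. The M1BP and Cp190 promoters had a peak in all 9 libraries, which is no check of the knockdown, since RNAi acts on the transcript.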

How the data were processed

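ATAC-seq peak lists of 9 Kc167 libraries were used, grouped by their labels. The members and gene lists were chosen with earlier results of these data known. Per the labels and methods, adapters were cut by the authors with cutadapt 1.8.1. They aligned reads to dm6 with Bowtie2 2.3.5, kept unique pairs with SAMtools 1.9, removed duplicates with Picard, and called peaks in each library by itself with MACS2 2.2.5 at a q-value of 0.0001, with no control. Whether reads were shifted for Tn5 is not given in the sources used here. The deposited columns held the fold enrichment (a ratio), the −log10 p-value and −log10 q-value, a score made from −log10 q, and the summit position. Summit fragments and local background were computed from the deposited fold and −log10 p-value, and 100% of peaks gave fragments within 0.05 of a whole number. The depth in reads is unknown from peak lists.

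Starts came from Ensembl release 115, and the authors used FlyBase release 6.24. A promoter peak overlapped the 100 bp on either side of a start by at least 1 bp, and the strongest was taken. Its percentile and log2 width in the 6100 genes with a peak in all 9 libraries, and the percent of the gene covered in the 9744 genes with coverage in at least 3, were tested with limma 3.58.1 (R 4.3.3, eBayes with trend, two-sided) on all libraries, with Benjamini-Hochberg adjustment over all genes tested and a threshold of 0.05. The fit was tested on simulated data. The named genes were those without a peak in every library, the largest falls and rises in each measure, those with Motif 1, and RpLP1, RpL30 and sta. RpL15, RpL7 and RpS25, and the neighbours and list genes given with values, were chosen after their values were seen. A few genes of the set count in the totals and are not reported here by name. Alternatives are in the closing section.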

Additional observations from a re-analysis of the deposited data

How the results depend on the processing

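Members called lower in percentile in M1BP knockdown against mock numbered 56 to 62 when 1 library was left out, and 60 to 64 against Cp190 knockdown. Counted on log2 fold enrichment, 4 members were lower and 26 higher than mock, and 6 lower and 16 higher than Cp190 knockdown. The medians over members turned to 0.203 and 0.126 on that scale, as did RpL23A (0.463), RpL30 (0.18), RpL37-1 (0.217), RpLP1 (0.227) and sta (0.277). With fold enrichment centred on all genes, a scaling chosen after seeing the data, 26 were lower and 5 higher than mock, 25 lower and 6 higher than Cp190 knockdown, and RpL23A was at 0.174. With summit fragments centred on all genes these counts were 37 and 4 against mock, with sta at 0.101, and 34 and 3 against Cp190 knockdown. Members called higher than mock numbered 1 with peaks of at least 20 in −log10 q, 2 with lists of equal length and 2 in the rank among promoters, and against Cp190 knockdown 1 with lists of equal length and 1 in the rank. The causes were not tested.

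With centred widths, 9 members were narrower and 18 wider in M1BP knockdown, with a median of 0.002. Leaving out 1 library gave 12 to 21 narrower (12 without M1BP knockdown replicate 1) and 0 to 2 wider, and 0 to 1 narrower in Cp190 knockdown. Coverage gave 24 to 34 members lower and 0 to 1 higher (RpL41) in M1BP knockdown, the increase being called without M1BP knockdown replicate 1, and 0 to 2 lower in Cp190 knockdown, with 1 higher at equal list length. Gained promoter peaks numbered 0 to 1 in each knockdown. The numbers of the replicates did not pair the libraries, and a fit with a replicate block called 60 members lower in percentile, 17 narrower and 25 less covered in M1BP knockdown, and 0 in Cp190 knockdown. Peak lists hold only what passed the q-value threshold, so a promoter without a peak may still be accessible below it.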
